A study of Arabidopsis thaliana with 8 samples.

Results

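The genes described here are 10 members of the TAA and YUCCA families of Arabidopsis thaliana, TAA1, TAR2 and YUC2 to YUC9, which were taken by locus identifier from a table of 33201 rows. All 10 had a row of their own. RNA was sequenced from WOX5::GFP-positive cells of the pan mutant and of wild type, both in the Col-0 accession, with 4 libraries labelled as biological replicates for each genotype. Roots of 5-day-old seedlings were protoplasted and the fluorescent cells were sorted, so both genotypes carried the reporter, a label of the quiescent center (QC) at the heart of the root stem cell niche. The labels name the mutant only as pan, and the allele it carries is not named there.

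Auxin (indole-3-acetic acid, IAA) is made from tryptophan mainly by a pair of successive reactions. Aminotransferases of the TAA family, TAA1 and its relatives, turn tryptophan into indole-3-pyruvate. Flavin monooxygenases of the YUCCA (YUC) family turn indole-3-pyruvate into IAA, and this step is regarded as rate-limiting. TAA1 is known to be expressed in the QC, and YUC3, YUC5, YUC7, YUC8 and YUC9 are the family members known to act in roots. Local auxin synthesis helps to keep an auxin maximum at the root tip.

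The YUC genes differ in how alike their coding sequences are, which bears on how far reads can be told apart among them. Over the 28 pairs of YUC members, identity of aligned coding bases ran from 61.5% to 81.0%, with a median of 64.8%. The closest pair was YUC5 and YUC9 at 81.0%, followed by YUC3 and YUC7 at 79.4% and YUC8 and YUC9 at 72.9%. TAA1 and TAR2 shared 64.8%. The longest run of identical bases in any YUC pair was 42 bases, in YUC5 and YUC9. It is shown because a read lying within it could come from either gene. The coding stretches are those of chr5:17648989-17649078 on the minus strand for YUC5 and of chr1:1105767-1105856 on the plus strand for YUC9 (RefSeq annotation of TAIR10.1), with the identical run in capitals and 24 bases on either side.
YUC5: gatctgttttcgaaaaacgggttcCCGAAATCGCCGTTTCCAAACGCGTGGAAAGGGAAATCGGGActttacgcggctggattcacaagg
YUC9: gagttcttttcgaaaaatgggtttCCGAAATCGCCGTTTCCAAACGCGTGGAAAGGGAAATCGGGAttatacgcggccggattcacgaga
The run covers positions 1078 to 1119 of the YUC5 coding sequence and 1069 to 1110 of that of YUC9, counted from the start codon. Neither read length nor the treatment of reads with several matches is stated in the labels, so the levels of YUC5 and YUC9 are uncertain to that extent.

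**Figure D1:**
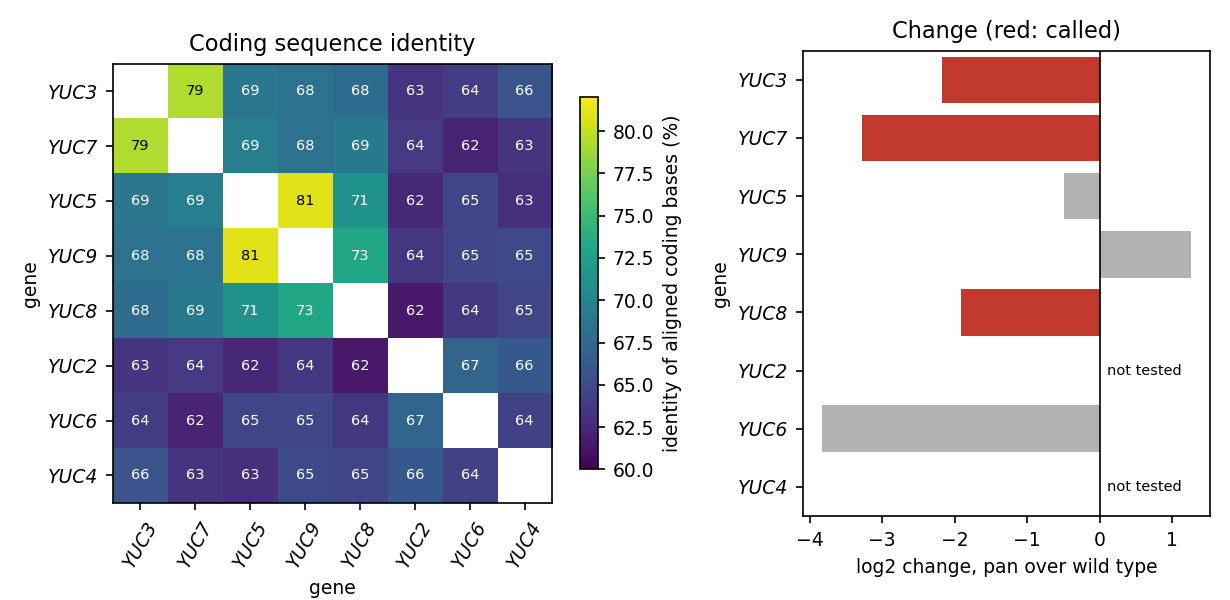
Left, percent identity of aligned coding bases between YUC members, with brighter cells for closer pairs; right, the deposited log2 change of each gene, pan over wild type, in red where called at q under 0.05. The closest pair, YUC5 and YUC9 (81.0%), has changes of -0.49 and 1.26, and YUC3 and YUC7 (79.4%) have changes of -2.17 and -3.28.

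The most abundant members in wild type, YUC3, TAA1 and YUC8, were lower in pan. YUC7, with 1.86% of the summed YUC level in wild type, fell as well. All 4 were called at the authors' threshold (q under 0.05 in the deposited Cuffdiff comparison), at which no member rose. Of the 10 members 8 had been tested; 4 of these were called lower and 4 were not called, beside 9.83% called lower and 8.01% called higher among all 19789 tested genes (17.8% called in either direction). At an unadjusted p under 0.05 the deposited comparison gave 6 members lower and 1 higher. The share of all tested genes under that limit is not given here. The median log2 change over the 8 tested members was -1.74, against -0.17 over all tested genes. Levels are pooled FPKM, fragments scaled to transcript length and library size, with 1 value per genotype; no value per library is in the table, so no level here has a standard deviation and only the deposited q-value reflects the spread between replicates. In sorted cells measured in bulk, fewer cells of a type and less RNA per cell cannot be told apart.

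Of the aminotransferases, TAA1 (AT1G70560, chromosome 1, 26604855 to 26607503, TAIR10, plus strand, 5 exons) carries most of the transcript. The authors' deposited table gave it 38.9 FPKM in pan, against 98.1 FPKM in wild type. It fell 2.52-fold per the authors' deposited table (log2 change -1.34, q = 0.00719). TAA1 held rank 4271 of all rows by level in pan and rank 1579 in wild type. TAR2 (AT4G24670, chromosome 4, 12727834 to 12731274, minus strand), the relative of TAA1 known for vascular and root functions, had 2.84 FPKM in pan and 8.42 FPKM in wild type per the authors' deposited table. Its log2 change of -1.57 was not called per the authors' deposited table (p = 0.0396, q = 0.138), although it was numerically larger than that of TAA1. TAA1 made up 93.2% of the summed TAA1 and TAR2 level in pan and 92.1% in wild type. Their sum was 41.7 FPKM in pan and 107 FPKM in wild type (log2 change -1.35).

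Among the monooxygenases, YUC3 was the most abundant in both genotypes. YUC3 (AT1G04610, chromosome 1, 1279388 to 1281618, plus strand) had 84.0 FPKM in pan, against 379 FPKM in wild type, per the authors' deposited table. In wild type it stood at rank 329 of all rows by level, above 98.6% of the rows with a level over 0; in pan it stood at rank 2210. It fell 4.51-fold per the authors' deposited table (log2 change -2.17, q = 0.00116). That q-value goes with a Cuffdiff p of 5e-05, the smallest among the genes named here. Many of them share it, so it does not rank them against each other. Among tested genes averaging 100 FPKM or more, the class of YUC3, 7.34% were called lower, 28.1% were called higher and the median log2 change was 0.43.

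YUC8 (AT4G28720, chromosome 4, 14192583 to 14194256, plus strand, 1 exon), a member known to respond to light, temperature and jasmonate signals, was the next most abundant YUC gene in wild type. It had 15.2 FPKM in pan and 57.3 FPKM in wild type per the authors' deposited table. It fell 3.76-fold per the authors' deposited table (log2 change -1.91, q = 0.00116). Both YUC8 and TAA1 average between 20 and 100 FPKM, a class in which 12.7% of tested genes were called lower and the same share higher.

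YUC7 (AT2G33230, chromosome 2, 14080411 to 14081971, minus strand) had the largest fall of the called members as a plain ratio; with a pseudocount of 5 its log2 change of -1.21 was the smallest of these 4, beside -1.23 for TAA1. The authors' deposited table gave it 0.891 FPKM in pan, against 8.67 FPKM in wild type. It fell 9.73-fold per the authors' deposited table (log2 change -3.28, q = 0.0322), and 5.19% of tested genes in its class, 1 to 5 FPKM on average, were called lower. In the TAIR10.1 annotation the end of YUC7 overlaps 425 bases of AT2G33220 on the opposite strand, and whether reads were counted by strand is not stated. AT2G33220 had 194 FPKM in pan and 153 FPKM in wild type per the authors' deposited table and was not called (log2 change 0.34, q = 0.512); its level lay far above that of YUC7 in both genotypes.

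YUC9 differed from the other tested members in the direction of its deposited change, which was not called. YUC9 (AT1G04180, chromosome 1, 1104623 to 1105988, plus strand), another member known to respond to jasmonate, had 23.4 FPKM in pan and 9.76 FPKM in wild type per the authors' deposited table. Its deposited log2 change was 1.26, a level 2.40 times as high in pan, and it was not called per the authors' deposited table (p = 0.0208, q = 0.0896). In the class of YUC9, tested genes averaging 5 to 20 FPKM, 14.4% were called lower and 3.9% higher. YUC9 had a level in pan above that in wild type. Of the 8 tested members it was the only one with a higher level in pan; whether its change differs from those of the other members was not tested, since the table holds no value per library. YUC5 (AT5G43890, chromosome 5, 17648857 to 17650131, minus strand), its closest relative among the members by coding sequence, had 6.33 FPKM in pan and 8.88 FPKM in wild type per the authors' deposited table, with a log2 change of -0.49 that was not called (q = 0.637).

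YUC6, YUC2 and YUC4, known mainly from flowers and leaves, were near the bottom of the range. YUC6 (AT5G25620, chromosome 5, 8935040 to 8938758) had 0.127 FPKM in pan and 1.82 FPKM in wild type per the authors' deposited table. Its log2 change of -3.84 was the lowest of the 8 tested members as a plain ratio, though not with a pseudocount (-3.08 with 0.1, above -3.15 for YUC7, and -1.32 with 1), and was not called per the authors' deposited table (p = 0.0432, q = 0.147). YUC2 (AT4G13260, chromosome 4, 7721618 to 7723989) had 0.107 FPKM in pan and 0.0485 FPKM in wild type per the authors' deposited table, and YUC4 (AT5G11320, chromosome 5, 3611247 to 3613361) had 0.0375 FPKM in pan and was listed at 0 in wild type. The authors left YUC2 and YUC4 without a test. The lowest levels above 0 in the table differed between genotypes. Over rows above 0, the 0.1 percentile of FPKM multiplied by transcript kilobases was 0.00350 in pan and 0.0353 in wild type. It was 10.08 times as high in wild type, and it is an observed percentile, not a limit of detection. At the length of YUC4 these percentiles correspond to 0.00206 FPKM in pan and 0.0208 FPKM in wild type. The wild type 0 of YUC4 thus stands beside higher lowest levels than its pan value.

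**Figure D2:**
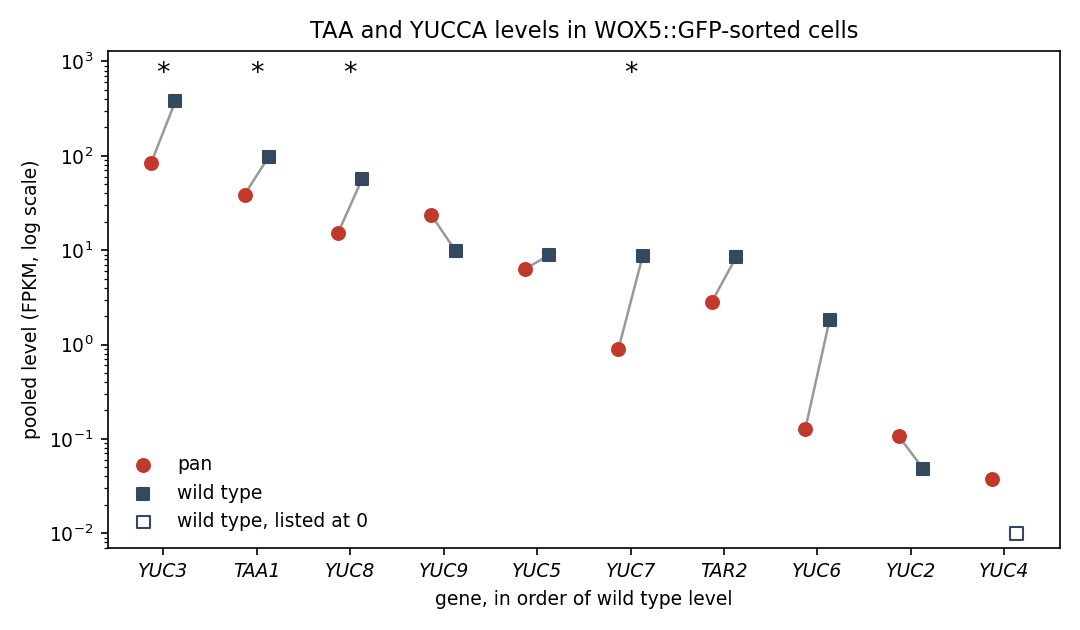
Pooled FPKM on a log axis for each of the 10 genes, pan as circles and wild type as squares, ordered by wild type level; asterisks mark the 4 genes called at q under 0.05, and the open square stands for YUC4, listed at 0 in wild type and drawn at the foot of the axis. YUC3 leads in both genotypes (84.0 FPKM in pan and 379 FPKM in wild type), and among the tested genes YUC9 alone lies higher in pan.

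The order of the levels differed between the genotypes. In pan it ran YUC3, TAA1, YUC9, YUC8, YUC5, TAR2, YUC7, YUC6, YUC2 and YUC4 from high to low. In wild type YUC3, TAA1 and YUC8 led, YUC9, YUC5, YUC7 and TAR2 lay between 8.42 and 9.76 FPKM, and YUC6, YUC2 and YUC4 followed. Without values per library, it cannot be said which neighbours in these orders differ beyond their spread. YUC8 stood at 0.650 times the level of YUC9 in pan and at 5.86 times in wild type. The ratio of YUC5 to YUC7, 7.10 in pan, was 1.02 in wild type.

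The summed YUC level was 130 FPKM in pan and 466 FPKM in wild type, a log2 change of -1.84. YUC3 contributed 64.5% of that sum in pan and 81.4% in wild type. YUC9 contributed 18.01% in pan and 2.097% in wild type, while YUC8 held a similar share, 11.7% in pan and 12.3% in wild type. YUC5 contributed 4.86% in pan and 1.91% in wild type. Without YUC3 the sum of the other 7 YUC members was 46.2 FPKM in pan and 86.4 FPKM in wild type (log2 change -0.90). Set against the sum of TAA1 and TAR2, the YUC sum was 3.12 times as high in pan and 4.37 times in wild type. These sums and shares have no test.

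**Figure D3:**
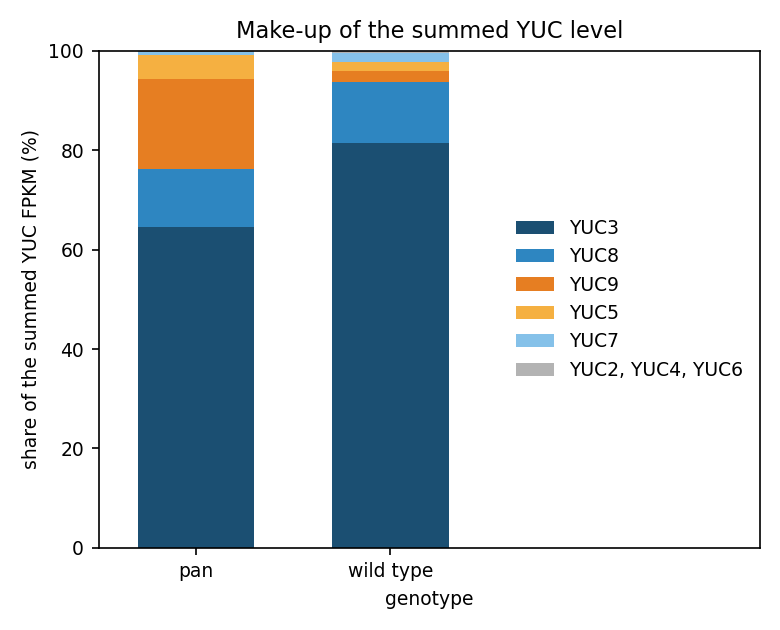
Share of the summed YUC FPKM held by each YUC gene, in pan (left) and wild type (right), as stacked bars reaching 100%. YUC3 holds 64.5% in pan and 81.4% in wild type, and YUC9, in dark orange, holds 18.01% in pan and 2.097% in wild type.

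The promoters were read for 2 short motifs, because PAN is a bZIP factor of the TGA class, whose members are known to bind TGACG, and because TGTCTC is a known element of auxin-responsive promoters. The window was the 250 bases before the RefSeq gene start, searched on both strands, and neither motif lies within the other. TGACG was found in 2 of the 10 members, TAR2 (bases 66 to 62 before the start, plus strand of the gene) and YUC8 (bases 225 to 221, opposite strand), beside 18.6% of 27443 protein-coding promoters. Of the 4 called members, YUC8 was thus the one with TGACG in this window. TGTCTC was found in YUC2 (bases 44 to 39 before the start), beside 10.9% of all promoters. The promoters of YUC8 (chr4:14192319-14192568, plus strand) and YUC3 (chr1:1279101-1279350, plus strand) are shown as the more abundant YUC genes that fell, with and without the letters searched for; capitals mark TGACG read on the opposite strand.
YUC8: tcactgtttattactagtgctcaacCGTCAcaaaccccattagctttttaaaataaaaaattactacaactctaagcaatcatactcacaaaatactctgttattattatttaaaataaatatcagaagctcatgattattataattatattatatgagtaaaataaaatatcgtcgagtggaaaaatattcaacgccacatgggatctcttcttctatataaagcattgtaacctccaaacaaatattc
YUC3: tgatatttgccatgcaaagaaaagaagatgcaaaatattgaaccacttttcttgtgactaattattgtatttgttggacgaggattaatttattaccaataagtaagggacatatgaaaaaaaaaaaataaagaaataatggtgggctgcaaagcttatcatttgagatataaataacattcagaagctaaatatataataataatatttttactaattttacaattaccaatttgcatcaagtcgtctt
Letters absent from a window of this length say nothing about sites elsewhere.

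The promoters of YUC5 and YUC9, the pair closest in coding sequence, also held matching stretches. Runs of at least 10 identical bases covered 47 bases of each promoter, in 4 runs that follow each other in the same order. Among the other 44 of the 45 pairs of members the highest such cover was 35 bases, in TAA1 and YUC4, and 20 of the 45 pairs had none. By other measures YUC5 and YUC9 stood out less. Their longest single run was 13 bases, against 14 in YUC7 and YUC9. Their alignment score was 111.5, against 116 for YUC6 and YUC9. Identity of aligned bases was 71.7%, against 71.3% for YUC8 and YUC9. The promoters are chr5:17650376-17650625 on the minus strand for YUC5 and chr1:1104243-1104492 on the plus strand for YUC9, with the shared runs in capitals; this pair was chosen for display after the sequences were seen.
YUC5: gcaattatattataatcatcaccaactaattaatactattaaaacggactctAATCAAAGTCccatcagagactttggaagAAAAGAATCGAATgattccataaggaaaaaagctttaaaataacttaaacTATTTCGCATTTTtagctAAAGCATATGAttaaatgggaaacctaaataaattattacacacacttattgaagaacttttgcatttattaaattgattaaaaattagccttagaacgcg
YUC9: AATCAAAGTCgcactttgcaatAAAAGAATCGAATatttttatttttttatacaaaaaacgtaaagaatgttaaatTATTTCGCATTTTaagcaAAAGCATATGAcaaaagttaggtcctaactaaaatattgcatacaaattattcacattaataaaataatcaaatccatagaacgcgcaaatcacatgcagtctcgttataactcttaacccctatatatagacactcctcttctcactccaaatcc
Beside these shared runs stand the levels given above, with YUC5 at 6.33 FPKM in pan and 8.88 FPKM in wild type and YUC9 at 23.4 FPKM in pan and 9.76 FPKM in wild type per the authors' deposited table.

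Of the 6 remaining genes of both families 1 had been tested, AT1G34040, annotated as a pyridoxal phosphate-dependent transferase, with 9.43 FPKM in pan and 6.81 FPKM in wild type per the authors' deposited table (log2 change 0.47, q = 0.628). YUC1, YUC11 and AT1G34060 lay below 1 FPKM in both genotypes, and TAR1 and YUC10 stood at 0.0231 and 0.00331 FPKM in pan and were listed at 0 in wild type per the authors' deposited table. The locus given for YUC11 holds AT1G21440 as well.

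Upstream of TAA1, genes of tryptophan synthesis fell in part. Of 11 tested, 4 fell and none rose in the deposited Cuffdiff comparison (5 lower and 0 higher at an unadjusted p under 0.05). Over all tested genes 9.83% were called lower and 8.01% higher. The median log2 change of the 11 was -1.05, against -0.17 over all tested genes. TRP1, the phosphoribosyltransferase of the pathway, had 10.8 FPKM in pan and 54.6 FPKM in wild type per the authors' deposited table (log2 change -2.34, q = 0.00116). The anthranilate synthase subunits ASA1 and ASB1 fell as well per the authors' deposited table, with log2 changes of -1.39 (q = 0.0376) and -1.31 (q = 0.0232). The tryptophan synthase gene TSB1 fell to 97.6 FPKM in pan, against 204 FPKM in wild type, per the authors' deposited table (q = 0.0129).

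A route to IAA beside TAA and YUC passes through indole-3-acetaldoxime, made from tryptophan by CYP79B2 and CYP79B3, which also feed indole glucosinolates. Of the 5 tested genes on these routes both CYP79B genes fell and none rose (1 higher at an unadjusted p under 0.05, Cuffdiff). Over all tested genes 9.83% were called lower and 8.01% higher. The median log2 change of the 5 was 0.47, against -0.17 over all tested genes. Another 2 rows were not tested, and AAO1 had no row under its identifier. CYP79B2 had 23.0 FPKM in pan and 579 FPKM in wild type per the authors' deposited table (log2 change -4.65, q = 0.00116), a level in wild type above that of YUC3. CYP79B3 had a log2 change of -5.18 per the authors' deposited table (q = 0.00116). The nitrilases NIT1, NIT2 and NIT3 were not called, with log2 changes of 0.65, 1.63 and 0.47 per the authors' deposited table.

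Of 10 tested genes listed for IAA inactivation, 1 fell and 1 rose, near the shares over all tested genes (9.83% lower and 8.01% higher). Their median log2 change was -0.19. The list includes VAS1, which acts on indole-3-pyruvate and not on IAA (log2 change -0.018, not called). GH3.5, an amido synthetase that joins IAA to amino acids, had 8.46 FPKM in pan and 48.6 FPKM in wild type per the authors' deposited table (q = 0.00116). GH3.17, an enzyme of the same kind, rose to 50.8 FPKM in pan, against 25.1 FPKM in wild type, per the authors' deposited table (q = 0.0392). Of 6 tested genes that release IAA from conjugates or esters, none was called in either direction (0 lower and 1 higher at an unadjusted p under 0.05, Cuffdiff). The median log2 change of these 6 was 0.29. The largest log2 changes among the 6 were 0.92 for the amidohydrolase ILL2 (q = 0.457) and 0.84 for IAR3 (q = 0.120) per the authors' deposited table.

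Of 26 transcription factors reported to act on TAA or YUC genes, 16 were tested, 4 fell and none rose (4 lower and 1 higher at an unadjusted p under 0.05, Cuffdiff), beside 9.83% lower and 8.01% higher over all tested genes. Their median log2 change was -1.10. Those that fell were WOX5 and the PLETHORA genes PLT1, PLT2 and PLT3. WOX5 is also the gene named in the reporter by which the cells were sorted. WOX5 had 8.27 FPKM in pan and 205 FPKM in wild type per the authors' deposited table (log2 change -4.63, q = 0.00116). Whether the cells sorted from both genotypes were alike in type was not tested. PLT1, PLT2 and PLT3 had log2 changes of -3.09, -3.19 and -2.51 per the authors' deposited table. EIN3, the ethylene factor, and MYC2, the jasmonate factor, had 107 and 98.9 FPKM in pan, against 122 and 111 FPKM in wild type, per the authors' deposited table and were not called. Another 6 of the 26, PIF4 and PIF7 among them, were listed at 0 in wild type.

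Markers of cell types moved beside the synthesis genes, and their part in these results was not tested. Their counts stand beside 9.83% called lower and 8.01% called higher over all tested genes. All 8 QC and niche markers fell in the deposited comparison, with a summed level of 71.8 FPKM in pan and 745 FPKM in wild type. WOX5, PLT1, PLT2 and PLT3 are among these 8 and are also the 4 regulators that fell, so the counts are not separate. MYB56, WOX5 and BBM led with log2 changes of -4.997, -4.63 and -4.14 per the authors' deposited table. All 6 root cap markers fell, with a sum of 219 FPKM in pan and 646 FPKM in wild type, led by PIN3 at -2.65, FEZ at -1.93 and BRN1 at -1.88 per the authors' deposited table. The called TAA and YUC members all fell, with log2 changes from -3.28 to -1.34. The root cap markers ran from -2.65 to -1.09 and the niche markers from -4.997 to -2.29. The 4 stele markers that fell ran from -4.89 to -3.06, while WOL, the other stele marker, rose (log2 change 1.33). Each of these ranges holds only genes called lower, so overlap between them was largely fixed beforehand and no conclusion is drawn from it. All tested members, called or not, ran from -3.84 (YUC6) to 1.26 (YUC9).

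Of 8 genes listed as root hair markers 6 rose in the deposited comparison. The sum was 2321 FPKM in pan and 612 FPKM in wild type. ADF8, RSL4 and PRP3 led with log2 changes of 2.92, 2.57 and 2.32 per the authors' deposited table. The 6 include MYB23 (log2 change 2.20), known from non-hair cells, with 50.9 FPKM in pan and 11.1 FPKM in wild type. Over all tested genes 9.83% were called lower and 8.01% higher, and among those averaging 100 FPKM or more 28.1% were called higher. Of 5 stele markers 4 fell and 1 rose, and the sum was 75.1 FPKM in pan and 73.2 FPKM in wild type. The riser, WOL, a cytokinin receptor gene, held most of that sum in pan, with 70.8 FPKM in pan and 28.1 FPKM in wild type per the authors' deposited table, and the other 4 summed to 4.34 FPKM in pan and 45.1 FPKM in wild type. Among those, CVP2, ATHB8 and SHR had log2 changes of -4.89, -3.31 and -3.21 per the authors' deposited table. Of 5 endodermis markers 1 rose, CASP1 (log2 change 1.58 per the authors' deposited table), and the sum was 273 FPKM in pan and 115 FPKM in wild type. No marker of these 5 lists was at 0 in either genotype. The targeted gene itself, PAN, had 0.265 FPKM in pan and 19.996 FPKM in wild type per the authors' deposited table (q = 0.0386), at a locus that the table also gives to another gene.

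**Figure D4:**
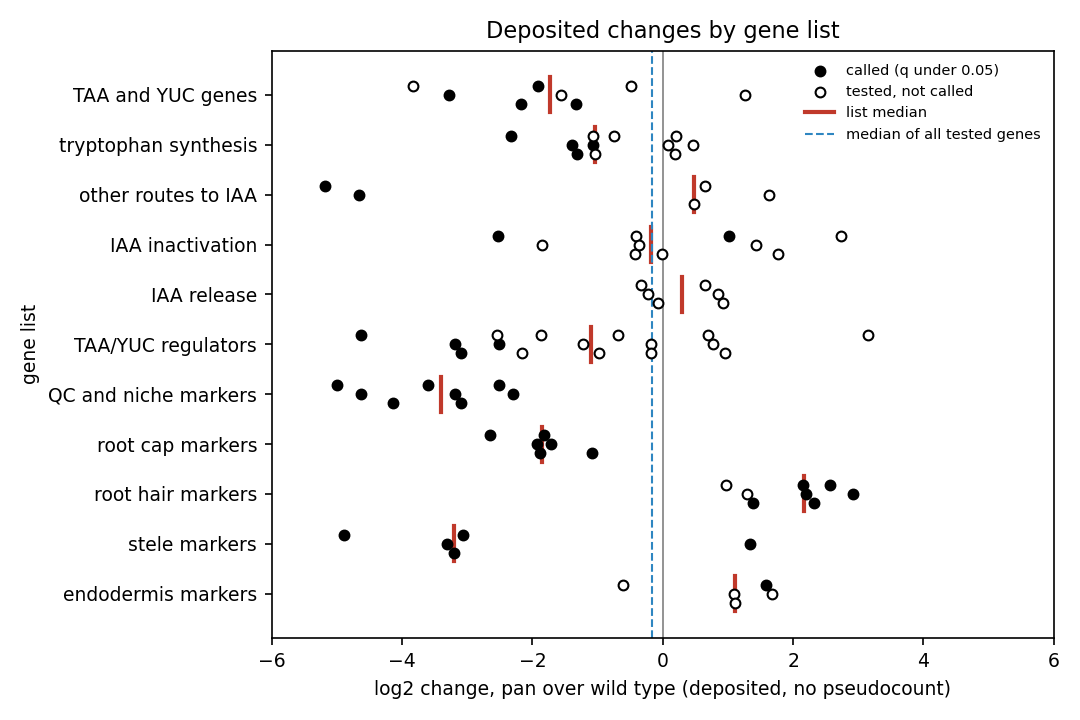
Deposited log2 changes, pan over wild type, of the tested genes in each list, with filled points for called genes, open points for tested genes that were not called, red bars at list medians and a dashed line at the median of all tested genes (-0.17). The TAA and YUC genes have a median of -1.74, beside -3.40 for QC and niche markers, -1.85 for root cap markers and 2.17 for the root hair list, MYB23 included.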

How the data were processed

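RNA from sorted root cells was sequenced in 4 pan and 4 wild type libraries. The submitters' processing notes name Cuffdiff, Cufflinks 2.1.1 and TopHat2 2.0.13, with the genome TAIR10, and no settings. The authors deposited 1 table of their own comparison with pooled FPKM per genotype, log2 changes of pan over wild type without a pseudocount, a test statistic (a score, not used), and p-values with q-values; the unit FPKM is read from the table's layout. Depth per library is unknown. Labels do not say whether replicates came from separate sorts. A linear model of the libraries had been planned and could not be fitted, so the deposited calls (q under 0.05) were read.

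Members and lists were chosen with earlier results of these data known. The genes named were all members, the other family genes, PAN and WOX5. From each pathway list up to 4 called genes with the largest change were named or, with none called, 2 tested genes. From each marker list up to 3 called genes were named. NIT1 to NIT3, WOL, EIN3, MYC2, PIF4, PIF7, AAO1, AT2G33220, MYB23 and VAS1 were added after their values were seen. Sequences and exons came from RefSeq TAIR10.1 by locus tag, which matched 97.0% of rows. Coding sequences were aligned with Biopython 1.88 in place of proteins (match 2, mismatch -1, gap opening -5, extension -0.5). Recomputed Benjamini-Hochberg values differed from deposited q-values by at most 5.25e-07. The adjustment and motif search were tested on simulated data. Pseudocounts, scaling, thresholds, filters and promoter windows were varied.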

Additional observations from a re-analysis of the deposited data

How the results depend on the processing

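Adding the same pseudocount of 0.1, 1 or 5 to both genotypes cannot change the direction of a log2 change. Centring on the median of all tested genes (-0.17) or of tested genes of at least 20 FPKM on average (0.18) could not either. Both medians are smaller in size than the smallest change of a tested member (-0.49, YUC5). These settings therefore bear on the sizes alone. With a pseudocount of 5 the median over the tested members was -0.99, and that of the regulators was -0.24. The sizes for the scarce members depended on the pseudocount: with 1 and 5, YUC6 stood at -1.32 and -0.41, YUC7 at -2.35 and -1.21, and TAR2 at -1.29 and -0.77.

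The calls depended on the threshold. Under the Benjamini-Yekutieli adjustment 2 members were lower, YUC3 and YUC8. YUC7 was not called at q under 0.01, nor was it among the genes of at least 5 FPKM on average; each of these left 3 members lower. At q under 0.10, 1 member, YUC9, was higher. Tryptophan synthesis had 1 gene lower at q under 0.01 and 1 under Benjamini-Yekutieli. Inactivation had 2 lower at q under 0.10, and 0 higher at q under 0.01 and under Benjamini-Yekutieli. Regulators had 1 higher at q under 0.10 and 1 when p-values were adjusted over genes of at least 1 or 5 FPKM. TGACG was found in 1 member within 150 bases of the start. The cause of these shifts was not tested beyond the settings themselves.

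No paired analysis was possible because the table holds 1 pooled value per genotype; leaving out single libraries was not run for the same reason. A coarser lowest level in wild type limits YUC2 and YUC4.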
